A study of Mus musculus with 9 samples.

Results

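The SLC25 family comprises the mitochondrial carriers, proteins that mostly sit in the inner mitochondrial membrane and exchange metabolites between the cytosol and the matrix. Members were taken as the protein-coding genes whose symbol was Slc25a followed by a number, which gave 47 of the 50600 genes measured. Their transcript levels were compared by RNA-seq in RAW-Blue cells, a mouse macrophage reporter line, with and without lipopolysaccharide (LPS), the bacterial cell-wall component sensed by Toll-like receptor 4. The 3 libraries called None here came from cells given no treatment, and the 3 called LPS from cells given LPS at 1 µg/ml for 24 h. All were the same line, grown in serum-containing medium with the selection antibiotic Zeocin. A further group of 3, given PjELN vesicles for 16 h before LPS, was not analysed here. The model is a single transformed line carrying a reporter, and the labels do not say whether replicates were separate cultures, so each p-value reflects the spread among these libraries alone, which may be technical.

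A carrier has alternating states open to either side of the membrane, and most carriers swap a substrate for another. Adenine nucleotide and phosphate carriers feed the ATP synthase, and carboxylate and aspartate/glutamate carriers move citrate, malate and reducing equivalents. Others bring in iron, cofactors, nucleotides, glutathione and amino acids. In macrophages given LPS, citrate leaving mitochondria through the citrate carrier is a known source of cytosolic acetyl groups and NADPH. The carriers are made in the cytosol without a cleaved presequence in most cases and are inserted through the TIM22 complex.

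Each library held between 14650843 and 17665200 estimated read counts assigned to genes. The members took 0.309 to 0.324% of the counts in None and 0.272 to 0.287% in LPS. The labels were checked with Tnf, Il1b, Nos2 and Acod1, which encode inflammatory mediators and enzymes that LPS induces; all 4 rose, and their summed level was 55.2 to 78.0 TPM (a share of transcripts that corrects for their length) in None against 2949 to 5488 in LPS. All 10 macrophage markers passed the filter on low counts (5 higher, 2 lower in LPS), with summed levels of 11550 to 13260 TPM in None and 19290 to 21500 TPM in LPS. Most of both sums was Lyz2 (means of 9714 TPM in None and 16560 TPM in LPS). The 2 lower markers were Csf1r (527 to 177 TPM) and Ptprc (104 to 67.8 TPM). Of 12 markers of other cell types only S100a8 and Cd79a passed the filter, and both were higher in LPS. They passed it through the LPS group alone (8 and 13 counts in None, 642 and 54 in LPS), as did Il1b and Nos2 above. The summed level of the 12 was 0.84 to 1.5 TPM in None and 67.9 to 85.2 TPM in LPS. Nearly all of the LPS sum was S100a8, a neutrophil and myeloid alarmin (0.78 to 72.4 TPM). Cd3e, Cd3g, Epcam, Krt8, Col3a1 and Ncr1 were at 0. The part of these marker differences in the results was not tested. In bulk RNA, fewer cells of a kind and less RNA per cell cannot be told apart.

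With LPS, 12 carriers rose, 13 fell and 13 did not pass the test among the 38 members with enough counts to be tested. All genes tested divided likewise, with 34.0% higher and 35.1% lower. The largest rises were Slc25a33, a pyrimidine nucleotide carrier (4.43-fold), Slc25a37, the iron carrier mitoferrin-1 (3.199-fold), Slc25a1, the citrate carrier (2.47-fold), Slc25a30, a relative of the uncoupling proteins (2.12-fold), and Slc25a43, whose substrate is not assigned (2.09-fold). Slc25a45 (2.11-fold), Slc25a35 and the glutamate carrier Slc25a18 fell by more than 2-fold, and the abundant phosphate carrier Slc25a3 fell by 0.49 on the log2 scale. The ADP/ATP carrier Slc25a5 was the most abundant member in every library. Fold changes come from edgeR's quasi-likelihood test on the estimated counts, with Benjamini-Hochberg adjustment over all 11916 genes tested and a threshold of 0.05, whereas levels are given in TPM.

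The called share of the members, 65.8%, lay near that of all genes tested, 69.1%. By direction, 31.6% of the tested members were higher against 34.0% of all genes, and 34.2% were lower against 35.1%. Of the members, 5 were higher by at least 2-fold, where 11.1% of all genes were, and 3 were lower by at least 2-fold, where 11.8% of all genes were. The groups did not overlap in CPM (counts scaled by library size) for 28 members, 13 higher and 15 lower, against 73.6% of all genes tested (35.7% higher, 38.0% lower). The median log2 fold change of the tested members was -0.02, and that of all genes tested was -0.03. The division between directions moves with the scaling. Scaling by library totals alone shifts the log2 fold changes of all genes by a median of -0.26. There were then 8 members higher and 22 lower, and on log2(TPM + 1) 9 higher and 16 lower. Of the called members, 26.7% and 36% were higher in these 2 settings, against 30.6% and 35.2% of all called genes.

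Untested members numbered 9. Slc25a21, Slc25a27, Slc25a31, Slc25a34 and Slc25a54 had no count in any library. Slc25a41 had 0 counts in None and 5 in LPS over the 3 libraries of a group, Slc25a2 had 6 and 5, Slc25a29 had 0 and 2, and Slc25a48 had 1 and 1. A count of 0 allows up to 0.0574 CPM over the None group and 0.0657 over the LPS group, for counting error only.

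**Figure D1:**
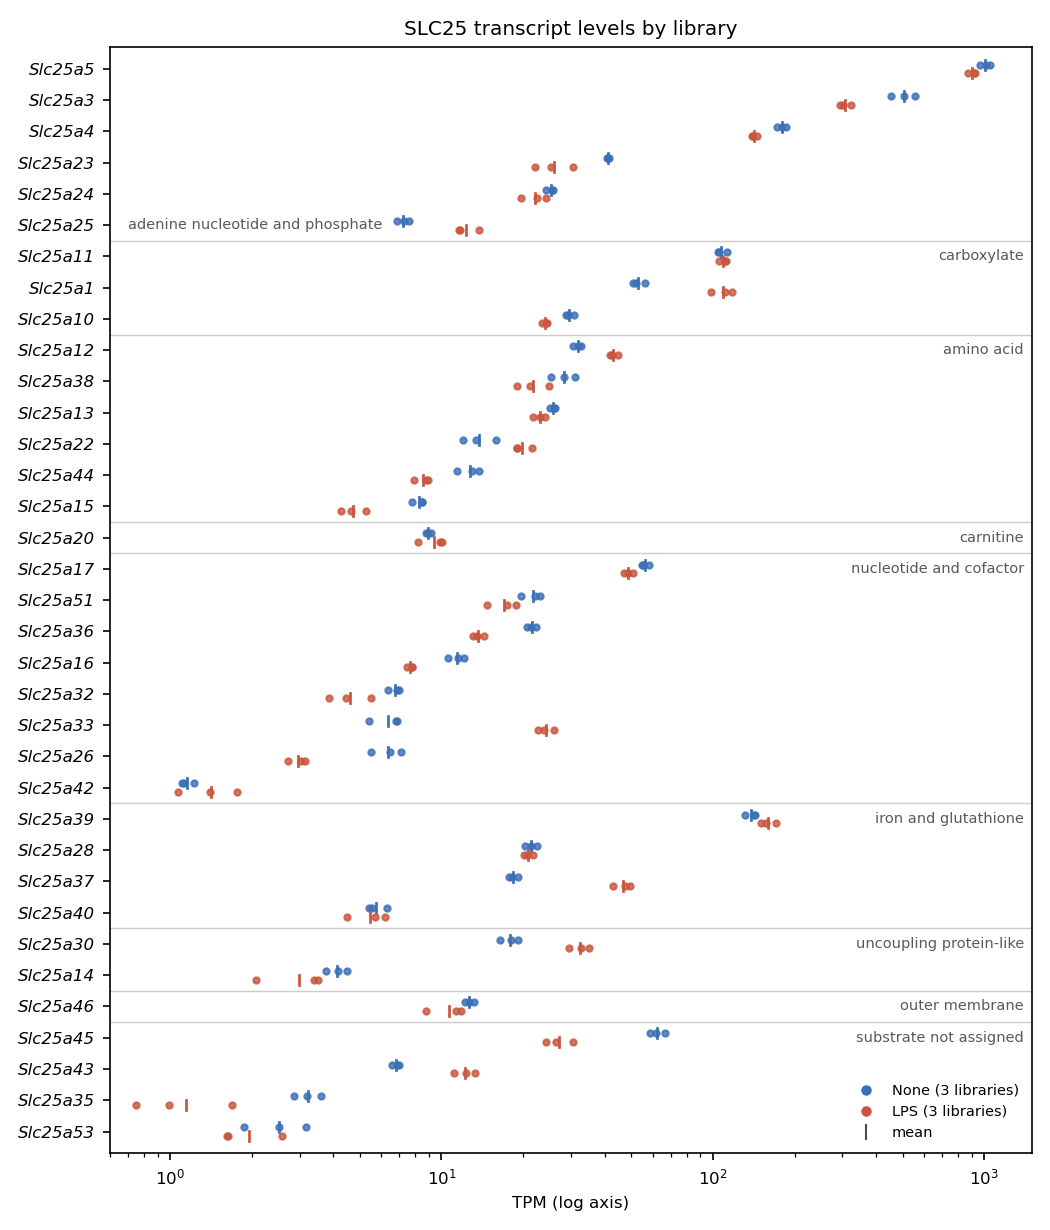
Levels of the SLC25 members reported here with a mean of at least 1 TPM in either group, in TPM on a log axis, with a point for each None and LPS library. Slc25a5 and Slc25a3 lead in both groups, and the None and LPS points stand apart for Slc25a33, Slc25a37, Slc25a1 and Slc25a45.

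Among the adenine nucleotide and phosphate carriers, which exchange ADP, ATP and phosphate and set the supply to the ATP synthase, 1 of the 6 tested members rose, 2 fell and 3 were not called; by library totals 1 rose and 5 fell. Slc25a5 stood at 1051, 1014 and 966 TPM in None and at 920, 869 and 923 TPM in LPS. Its TPM ranges did not overlap, but its log2 fold change on the count scale was 0.07 (adjusted p = 0.441, edgeR), and by library totals alone -0.19. The direction therefore turns with the scaling, and Slc25a5 lies at chromosome X, 36795651 to 36798807 (GRCm38, the build of all coordinates here). Slc25a4, the other abundant ADP/ATP carrier, stood at 186, 172 and 180 TPM in None and at 145, 139 and 140 TPM in LPS, with a log2 fold change of -0.13 (adjusted p = 0.104, edgeR). It was called lower by library totals (-0.39) and on log2(TPM + 1) (-0.34). ADP/ATP carriers are near-identical in parts and have related copies in the genome, so the division of reads among them is uncertain.

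Slc25a3, which imports phosphate and also carries copper, stood at 557, 506 and 452 TPM in None. In LPS it stood at 323, 293 and 302 TPM, so every LPS library lay below every None library. Its log2 fold change was -0.49 ± 0.09 (SE; adjusted p = 2.94e-04, edgeR), and the gene lies on chromosome 10 at 91116574 to 91124059.

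The calcium-regulated ATP-Mg/phosphate carriers, which change the size of the matrix adenine nucleotide pool, moved in different ways. Slc25a25 stood at 6.85, 7.26 and 7.59 TPM in None and at 11.7, 11.6 and 13.8 TPM in LPS. It rose 1.99-fold (adjusted p = 5.48e-06, edgeR), with no overlap of the groups. Slc25a23 stood at 40.6, 40.9 and 41.3 TPM in None and at 22.0, 25.3 and 30.6 TPM in LPS, and fell by 0.47 on the log2 scale (adjusted p = 0.00218, edgeR). Its None libraries were close together and its LPS libraries spread wider, with replicate 3 nearest to None. Slc25a24 stood at 25.8, 25.5 and 24.4 TPM in None and at 22.6, 24.4 and 19.6 TPM in LPS, with a log2 fold change of 0.02 that turned to -0.24 by library totals. Of the ATP synthase subunits and their inhibitor, a list of 16 genes, 7 were higher and 3 lower, among them the subunit genes Atp5d (log2 fold change 0.72), Atp5pb (0.33) and Atp5j2 (-0.30) and the inhibitor Atpif1 (-0.39). Without LPS replicate 3 the list had 5 higher and 5 lower. By library totals it had 1 higher and 9 lower, and Atp5pb was then at 0.07 and not called.

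Carboxylate carriers move citrate, malate, succinate and oxoglutarate across the inner membrane. Of the 3 tested members, 2 rose and 1 was not called; by library totals 1 rose, 1 fell and 1 was not called. Slc25a1, which exports citrate in exchange for malate, stood at 52.0, 56.1 and 50.8 TPM in None and at 117, 98.6 and 111 TPM in LPS. The groups lay far apart, and the log2 fold change was 1.31 ± 0.08 (SE; adjusted p = 3.66e-08, edgeR). The gene lies on chromosome 16 at 17925223 to 17928219.

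Slc25a11, which exchanges oxoglutarate for malate in the malate-aspartate shuttle, stood at 113, 105 and 105 TPM in None and at 112, 111 and 105 TPM in LPS. These TPM ranges overlap. On the count scale it was called higher at a log2 fold change of 0.24 (adjusted p = 0.00658, edgeR), but the value was -0.02 by library totals and 0.03 on log2(TPM + 1), neither of them called. Slc25a10, the dicarboxylate carrier for malate and succinate, stood at 29.3, 30.7 and 28.8 TPM in None and at 24.4, 23.5 and 24.6 TPM in LPS. Its TPM ranges did not overlap, while its log2 fold change was -0.12 (adjusted p = 0.184, edgeR). It was called lower by library totals (-0.38) and on log2(TPM + 1) (-0.28).

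The enzymes that make or use these carboxylates and aspartate numbered 16 in the list, with 9 higher and 5 lower. Me1, the cytosolic malic enzyme that yields NADPH, had a log2 fold change of 1.77, and Pck2, mitochondrial phosphoenolpyruvate carboxykinase, 1.61. Mdh2, mitochondrial malate dehydrogenase, had 1.07, and Ogdh, the oxoglutarate dehydrogenase subunit, 1.05. By library totals the list had 6 higher and 6 lower.

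**Figure D2:**
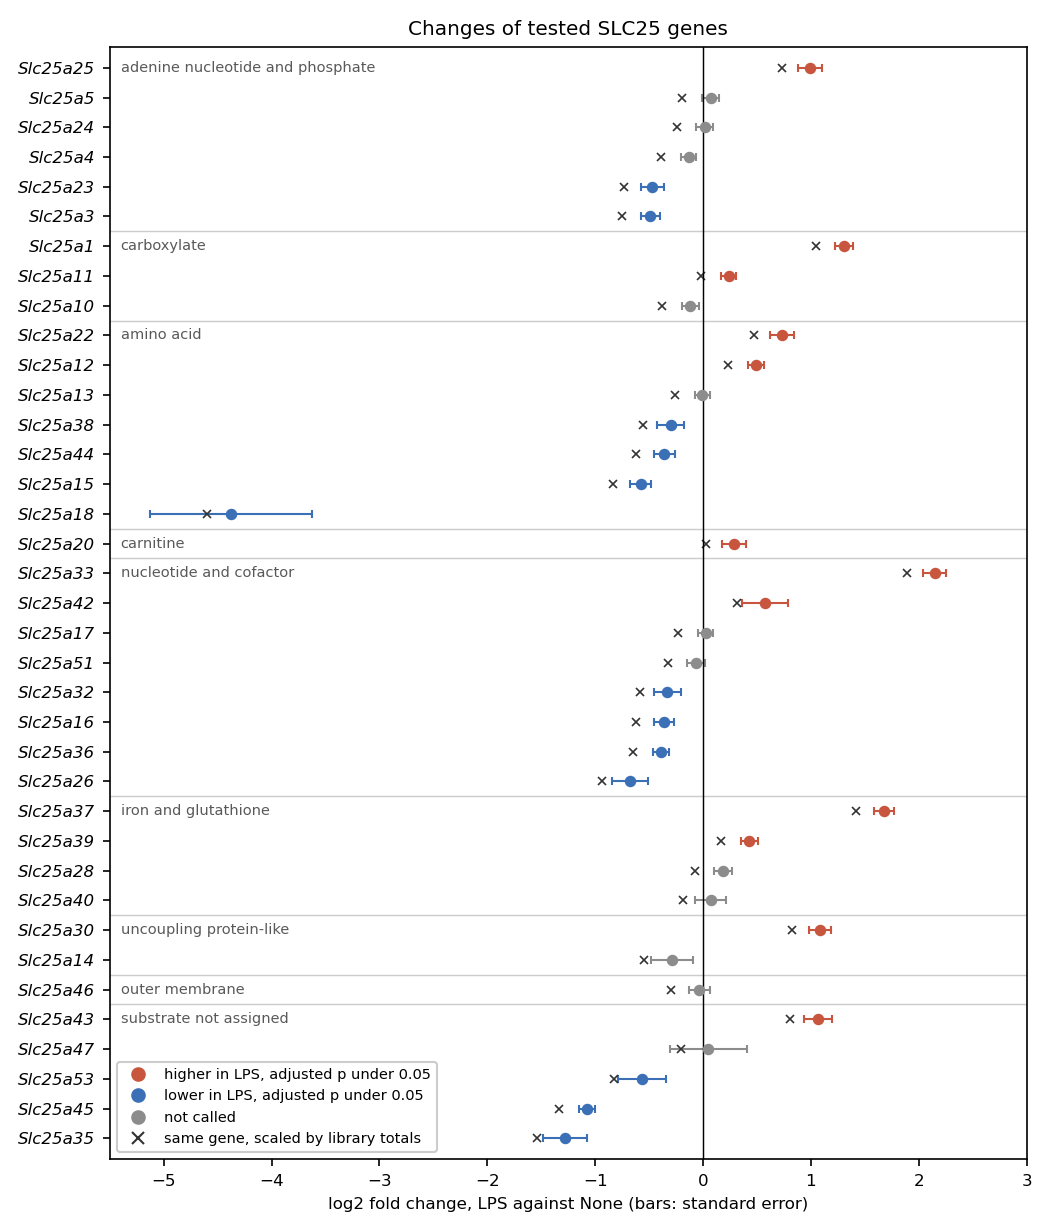
Log2 fold change of LPS over None with its standard error for the tested SLC25 members reported here, grouped by substrate, from edgeR with TMM scaling; red is higher, blue lower and grey not called, and crosses give the value scaled by library totals. Slc25a33 and Slc25a37 are the highest, and Slc25a18, which has 37 counts in None and 1 in LPS, is the lowest with the widest error.

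Amino acid carriers showed 2 higher, 4 lower and 1 not called among the 7 tested. The aspartate/glutamate carriers Slc25a12 and Slc25a13, calcium-sensing exchangers of the malate-aspartate shuttle, parted. Slc25a12 stood at 30.6, 32.8 and 32.0 TPM in None and at 44.9, 42.5 and 41.8 TPM in LPS, with a log2 fold change of 0.49 (adjusted p = 7.93e-05, edgeR). Slc25a13 stood at 26.1, 26.2 and 25.2 TPM in None and at 23.0, 24.1 and 21.8 TPM in LPS, with a log2 fold change of -0.01 that was not called. Slc25a12 was thus higher in every LPS library, whereas Slc25a13 was lower in TPM in every LPS library and called lower by library totals (-0.26).

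The glutamate carriers were unequal in level. Slc25a22 stood at 15.8, 13.4 and 12.0 TPM in None and at 19.0, 19.0 and 21.6 TPM in LPS, and rose by 0.73 on the log2 scale (adjusted p = 9.31e-05, edgeR). Slc25a18 stood at 0.49, 0.47 and 0.49 TPM in None and at 0, 0.05 and 0 TPM in LPS. It had 37 counts in None and 1 count in LPS; the ratio of None to LPS CPM was 27.0, with an exact 95% interval of 4.56 to 1096 that covers counting error only. It passed the filter on low counts through the None group alone. The call (adjusted p = 2.03e-04, edgeR) rests on these counts.

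Slc25a15, which exchanges ornithine for citrulline, stood at 7.77, 8.45 and 8.48 TPM in None and at 4.66, 5.27 and 4.25 TPM in LPS. It fell by 0.58 on the log2 scale (adjusted p = 2.11e-04, edgeR), with no overlap. Its relative Slc25a2 was at 0.18, 0.17 and 0 TPM in None and at 0.20, 0 and 0.13 TPM in LPS. Of the 10 genes of arginine and ornithine metabolism listed, 8 were tested and 7 rose, with none lower; 1 was lower by library totals, on log2(TPM + 1) and without None replicate 1. Nos2, inducible nitric oxide synthase, was at a log2 fold change of 12.07, the ornithine decarboxylase Odc1 at 5.28, the mitochondrial arginase Arg2 at 4.41 and argininosuccinate synthase Ass1 at 4.40. Nos2 had 6 counts in None and 20267 in LPS, so the size of its change rests on a None group near 0. It passed the filter on low counts through the LPS group alone. Nos2 also served in the label check above.

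Slc25a38, which brings in glycine for haem synthesis, stood at 28.4, 31.0 and 25.4 TPM in None and at 19.0, 21.2 and 25.0 TPM in LPS. In TPM the highest LPS library lay just below the lowest None library. In CPM the groups overlapped, with LPS replicate 3 at 26.33 and None replicate 3 at 25.02. Its log2 fold change of -0.30 (adjusted p = 0.0458, edgeR) lost its call when either of None replicates 1 and 2 (-0.31 and -0.24) or either of LPS replicates 1 and 2 (-0.19 and -0.27) was left out. Slc25a44, a carrier of branched-chain amino acids, was lower at a log2 fold change of -0.36 (adjusted p = 0.00486, edgeR).

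The carnitine/acylcarnitine carrier Slc25a20, which admits long-chain acyl groups for beta-oxidation, stood at 8.93 ± 0.18 TPM in None and 9.37 ± 1.02 TPM in LPS (SD, n = 3). Its log2 fold change of 0.29 (adjusted p = 0.0333, edgeR) lost its call on leaving out any None library (0.28 without replicate 1, 0.30 without replicate 2, 0.29 without replicate 3), LPS replicate 1 (0.25) or LPS replicate 2 (0.27). Of 11 genes of carnitine transfer and beta-oxidation, 2 rose and 5 fell. The acyltransferase Cpt1a was at a log2 fold change of -2.02 and its relative Cpt1c at 0.84. The acyl-CoA dehydrogenases Acadl and Acadm were at 0.69 and -0.62.

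Nucleotide and cofactor carriers comprised 9 tested members, of which 2 rose, 4 fell and 3 were not called; by library totals 1 rose and 6 fell. The largest change was that of Slc25a33, which with its relative Slc25a36 carries pyrimidine nucleotides and so supplies the matrix with precursors of mitochondrial DNA and RNA. Slc25a33 stood at 5.39, 6.80 and 6.87 TPM in None and at 23.9, 25.9 and 22.8 TPM in LPS. It had a log2 fold change of 2.15 ± 0.11 (SE; adjusted p = 4.82e-09, edgeR), and every LPS library was above every None library. Slc25a36 moved the other way, from 20.8, 22.4 and 21.3 TPM in None to 14.4, 13.5 and 13.1 TPM in LPS, and fell by 0.39 on the log2 scale (adjusted p = 5.29e-04, edgeR).

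Every member with a promoter window from RefSeq (GRCm38.p6) was searched for short motifs known from growth, stress and energy metabolism. A window runs from 250 bases before to 50 bases after an annotated start site. Windows are shown for this divergent pair and for Slc25a1 and Slc25a25, which all changed and hold a marked match. Those of the other changed members are not shown. Capitals mark the E-box CACGTG, bound by MYC, USF and TFE family factors, the cyclic AMP response element TGACGTCA, bound by CREB and ATF family factors, and in Slc25a1 also a match to the NF-kappaB consensus. Each is printed 5′ to 3′ on the strand of the gene.
Slc25a33, chr4:149774218-149774517, minus strand: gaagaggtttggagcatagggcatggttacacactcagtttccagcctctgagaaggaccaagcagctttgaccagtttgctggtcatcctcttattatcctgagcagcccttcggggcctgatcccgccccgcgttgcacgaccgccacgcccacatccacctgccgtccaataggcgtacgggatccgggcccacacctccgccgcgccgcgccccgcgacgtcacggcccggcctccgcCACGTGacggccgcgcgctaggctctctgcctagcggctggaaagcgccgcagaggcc
Slc25a36, chr9:97110992-97111291, minus strand: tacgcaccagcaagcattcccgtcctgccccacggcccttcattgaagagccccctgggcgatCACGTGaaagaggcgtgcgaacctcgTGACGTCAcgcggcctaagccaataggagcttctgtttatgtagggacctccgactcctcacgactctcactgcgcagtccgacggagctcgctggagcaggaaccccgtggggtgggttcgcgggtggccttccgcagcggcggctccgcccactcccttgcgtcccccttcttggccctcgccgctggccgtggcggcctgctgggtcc
Slc25a1, chr16:17928170-17928469, minus strand: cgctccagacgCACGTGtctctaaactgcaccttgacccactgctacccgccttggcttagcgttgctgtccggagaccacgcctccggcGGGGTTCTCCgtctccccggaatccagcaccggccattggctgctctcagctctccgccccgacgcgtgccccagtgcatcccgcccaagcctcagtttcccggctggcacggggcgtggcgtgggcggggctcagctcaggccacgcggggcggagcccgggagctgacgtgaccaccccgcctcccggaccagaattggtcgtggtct
Slc25a25, chr2:32424017-32424316, minus strand: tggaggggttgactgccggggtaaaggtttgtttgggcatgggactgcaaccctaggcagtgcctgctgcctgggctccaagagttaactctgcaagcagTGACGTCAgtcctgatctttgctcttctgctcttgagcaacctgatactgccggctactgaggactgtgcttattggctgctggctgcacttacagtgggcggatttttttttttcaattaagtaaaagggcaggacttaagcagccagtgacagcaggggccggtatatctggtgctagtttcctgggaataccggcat
Both pyrimidine nucleotide carriers hold an E-box, although 1 rose and the other fell. It lies 8 bases before the RefSeq start site in Slc25a33 and 187 bases before it in Slc25a36. In the annotation of the counts these minus-strand genes begin upstream of that site, at 149774277 and 97111157. Positions here hold for the RefSeq start only. Slc25a36 also holds a response element 161 bases before the start. The Slc25a1 window has its E-box 239 and its NF-kappaB match 160 bases before the start, and the Slc25a25 window, 1 of 3 for that gene, has a response element 150 bases before it. In the annotation of the counts Slc25a25 begins far upstream of this window, at 32451445. The other windows of Slc25a25, including that at 32451421 to 32451720, hold no response element.

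A window was found for 36 of the 47 members, and none for Slc25a37. For 35 of their 46 windows, the 30 bases after the start site matched a GENCODE transcript of the gene in sense. The match could lie away from the first base of the transcript, so it checks the strand and not the start site. Both strands were searched for 8 motifs, and a share is that of genes with a match in any of their windows. The E-box was found for 7 of these 36 members (19.4%), against 8.09% of all 27025 genes with a window and 12.0% of the 9018 tested. It was in 7.15% of all single windows. Among tested members with a window it was found for 2 of 11 that were higher, 2 of 9 that were lower and 2 of 10 that were not called. TGACGTCA was found for 2 members, against 3.83% of tested genes and 1.79% of all windows, and the ETS motif CCGGAAG for 7, against 21.9% and 8.86%. The NF-kappaB consensus was found for 3 members (6.05% of tested genes, 4.51% of all windows), of which Slc25a1 was higher, Slc25a10 was not called and Slc25a48 was not tested. The interferon response core GAAANNGAA was found for 4 members (8.59% and 8.56%) and the YY1 motif AAGATGGCG for Slc25a3 (3.98% and 1.4%). The NRF1 consensus (3.56% and 1.27%) and the ERR motif TCAAGGTCA (0.310% and 0.423%) were in no member's window. The counts of members include untested ones, whereas the shares of tested genes do not. These are Slc25a31 (E-box), Slc25a54 (ETS), Slc25a48 (NF-kappaB) and Slc25a21 (interferon response core). A match describes letters in a window, not binding.

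Slc25a17, a carrier of peroxisomes for coenzyme A, FAD and NAD, stood at 55.1, 54.9 and 58.1 TPM in None and at 50.6, 48.9 and 47.0 TPM in LPS. It was not called, and its log2 fold change of 0.02 turned to -0.24 by library totals and to -0.20 on log2(TPM + 1). Slc25a51, the mitochondrial NAD carrier, stood at 19.7, 22.2 and 23.1 TPM in None and at 17.5, 14.7 and 18.8 TPM in LPS, with a log2 fold change of -0.07 that was not called. By library totals and on log2(TPM + 1) it was called lower (-0.33 and -0.34). Slc25a26, which imports the methyl donor S-adenosylmethionine, fell by 0.67 on the log2 scale (adjusted p = 0.00328, edgeR). Slc25a16, linked to coenzyme A, was at -0.36 and lower.

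The weaker calls in this group were the folate and FAD carrier Slc25a32 and the coenzyme A carrier Slc25a42. Slc25a32 was at a log2 fold change of -0.33 (adjusted p = 0.0323, edgeR), a call lost on leaving out None replicates 1 or 3 (-0.32 and -0.29) or LPS replicates 1 or 3 (-0.30 and -0.23). Slc25a42 was at 0.57 (adjusted p = 0.0306, edgeR), a call lost on leaving out None replicates 1 or 2 (0.58 and 0.50) or LPS replicate 3 (0.37). Of the 17 enzymes of cofactor and one-carbon metabolism listed, 7 rose and 8 fell, while by library totals 2 rose and 8 fell and on log2(TPM + 1) 2 rose and 6 fell. Mat2a, which makes S-adenosylmethionine, was at a log2 fold change of -2.17. The mitochondrial folate enzymes Mthfd2 and Mthfd2l were at 1.78 and 1.42.

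Iron and glutathione carriers had 2 higher members, none lower and 2 not called among 4 tested. Slc25a37, mitoferrin-1, which imports iron for haem and iron-sulfur clusters, stood at 19.2, 17.8 and 18.2 TPM in None and at 47.5, 42.7 and 49.6 TPM in LPS. Its log2 fold change was 1.68 ± 0.09 (SE; adjusted p = 6.94e-09, edgeR), with the groups far apart, and the gene lies on chromosome 14 at 69241848 to 69285112. Slc25a28, mitoferrin-2, stood at 21.5, 22.5 and 20.4 TPM in None and at 20.7, 21.8 and 20.1 TPM in LPS, with a log2 fold change of 0.19 that was not called (called with RLE scaling).

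Slc25a39, which imports glutathione, stood at 143, 142 and 131 TPM in None and at 157, 151 and 171 TPM in LPS. It was higher at a log2 fold change of 0.43 (adjusted p = 3.37e-04, edgeR), but at 0.17 and not called by library totals (adjusted p = 0.0541, edgeR). Slc25a40, its relative with the same substrate, stood at 5.39, 6.32 and 5.57 TPM in None and at 6.18, 5.67 and 4.48 TPM in LPS, and the groups overlapped. Of the haem and iron-sulfur genes listed, 18 of 19 were tested, with 8 higher and 4 lower (6 and 6 by library totals). Alas1, the first enzyme of haem synthesis, was at a log2 fold change of 1.49 and Uros, a later one, at -1.75; the cluster assembly gene Isca2 was at 1.32.

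Among the relatives of the uncoupling proteins, Slc25a30 stood at 16.4, 19.2 and 17.98 TPM in None and at 29.6, 32.7 and 34.8 TPM in LPS. It rose 2.12-fold (adjusted p = 1.03e-06, edgeR), with no overlap. Slc25a14 was at a log2 fold change of -0.29 and not called (-0.55 and lower by library totals). Slc25a46, which sits in the outer membrane and takes part in mitochondrial fusion and fission, was at -0.04 and not called (-0.29 and lower by library totals).

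Members with no assigned substrate included 1 that rose, 3 that fell and 1 not called among 5 tested. Slc25a45 stood at 66.9, 62.0 and 58.7 TPM in None and at 30.6, 26.5 and 24.3 TPM in LPS. It was thus among the 10 most abundant members in None, and fell by 1.08 on the log2 scale (adjusted p = 1.03e-07, edgeR); the gene lies on chromosome 19 at 5877817 to 5885766. Slc25a43 stood at 6.96, 6.58 and 6.87 TPM in None and at 13.3, 12.3 and 11.1 TPM in LPS, a log2 fold change of 1.07 (adjusted p = 1.54e-05, edgeR), with no overlap. It lies on chromosome X at 36743659 to 36777202, next to Slc25a5.

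Slc25a35 stood at 3.19, 2.86 and 3.60 TPM in None and at 1.69, 0.75 and 0.99 TPM in LPS, and fell by 1.28 on the log2 scale (adjusted p = 1.19e-04, edgeR). Its exons share 1151 bases (31.3%) with Rangrf on the opposite strand, which was itself at a log2 fold change of -0.52 (adjusted p = 0.00214, edgeR), and no source used here states whether the counting used strand. Reads of this gene and its antisense partner may therefore not be separable. Smaller overlaps of exons with opposite-strand genes included 14.9% of Slc25a33 (Gm13068, 9 counts in all 6 libraries) and 8.92% of Slc25a11 (Rnf167). Others were 7.06% of Slc25a46 (B930094E09Rik), 6.6% of Slc25a10 (Gm11788), 6.33% of Slc25a37 (Gm31748, 21 counts in all 6 libraries) and 4.82% of Slc25a25 (Naif1). The rest were smaller still. Slc25a53 was at a log2 fold change of -0.57 (adjusted p = 0.0370, edgeR), a call lost on leaving out None replicates 1 or 3 (-0.48 and -0.50) or LPS replicates 2 or 3 (-0.46 and -0.57). Slc25a47 was at 0.05 and not called.

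Ratios between carriers of related substrates were taken within each library as log2 of TPM + 0.1 over TPM + 0.1, which cancels the scaling between libraries. Of 10 pairs, 8 had ratios that did not overlap between the groups. For 73.6% of all single genes tested the groups did not overlap in CPM, and no share over other gene pairs was taken. With 3 against 3 the exact permutation test (two-sided) cannot go below 0.10. Each of the 8 pairs reached this value (adjusted p = 0.125 over the 10 pairs). The TPM of Slc25a33 over Slc25a36 went from 0.296 to 1.77, so that the rarer pyrimidine carrier in None was the more abundant in LPS; the log2 ratio was -1.75 ± 0.16 in None and 0.82 ± 0.11 in LPS (SD, n = 3). Slc25a37 over Slc25a28 went from 0.859 to 2.23, with log2 ratios of -0.22 ± 0.10 and 1.15 ± 0.17 (SD, n = 3). In both pairs the order of the members turned over.

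The pair Slc25a13 over Slc25a12 had a log2 ratio of -0.30 in None and -0.90 in LPS, and Slc25a24 over Slc25a25 of 1.79 and 0.84. Slc25a24 over Slc25a23 was at -0.70 and -0.22, Slc25a10 over Slc25a11 at -1.86 and -2.17, and Slc25a5 over Slc25a4 at 2.49 and 2.67. The groups of Slc25a24 over Slc25a23 came close, at -0.650 in None replicate 1 and -0.636 in LPS replicate 3. Slc25a22 over Slc25a18 was at 4.56 and 7.44, a difference of 2.88 that was 1.05 with 1 TPM added in place of 0.1, since Slc25a18 is near 0. The other two pairs overlapped: Slc25a39 over Slc25a40 at 4.57 and 4.86 (exact permutation p = 0.20, adjusted 0.222), and Slc25a15 over Slc25a2 at 5.41 and 4.66 (exact permutation p = 0.40).

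**Figure D3:**
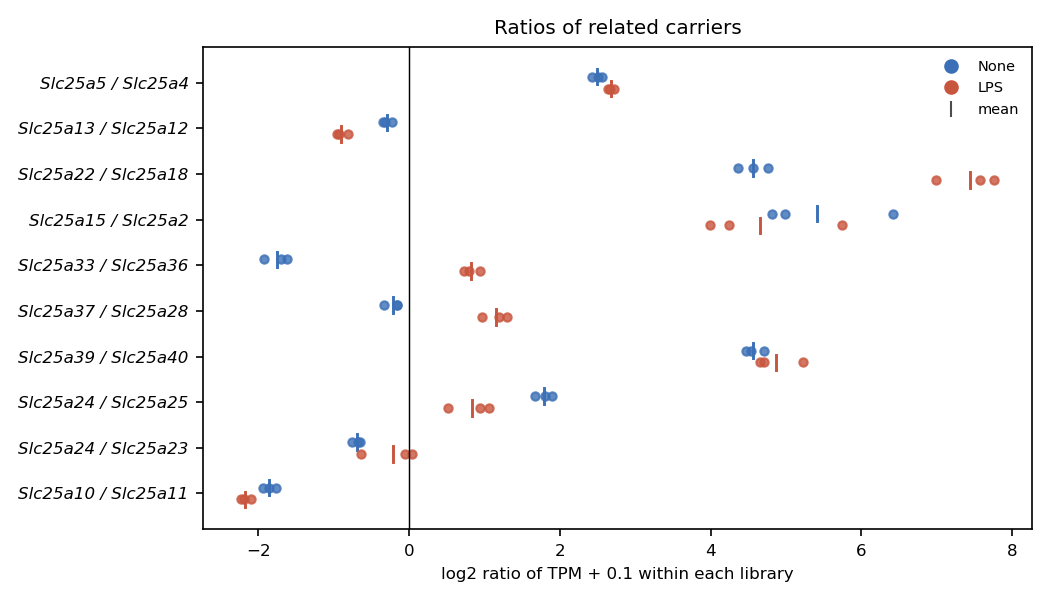
Within-library log2 ratio of TPM for each of the 10 pairs of related carriers, with a point for each None and LPS library. The Slc25a33/Slc25a36 and Slc25a37/Slc25a28 ratios pass from below 0 in None to above 0 in LPS.

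Summed over all members, the family stood at 2632, 2533 and 2409 TPM in None and at 2282, 2168 and 2261 TPM in LPS. The LPS libraries were all lower, at 0.886 of the None mean, and the exact permutation test (two-sided) gave p = 0.10, the smallest it can give with 3 against 3. The direction depends on the unit: on TMM-scaled CPM the log2 ratio of the sums was 0.08, against -0.17 on TPM. Slc25a5, Slc25a3 and Slc25a4 made up 66.4 to 68.1% of the family's TPM in None and 60.0 to 60.8% in LPS. Without them the sum was 839, 841 and 810 TPM in None and 894, 866 and 896 TPM in LPS, so the other members together were higher on this scale while the sum of all was lower.

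Within the family's TPM, the adenine nucleotide and phosphate carriers went from 70.0 to 63.1%. Carboxylate carriers went from 7.53 to 10.8%, iron and glutathione carriers from 7.29 to 10.4%, amino acid carriers from 4.80 to 5.41% and uncoupling protein relatives from 0.873 to 1.58%. Nucleotide and cofactor carriers took 5.64 and 5.83%, and members with no assigned substrate 3.00 and 1.93%. The outer membrane member took 0.502 and 0.476%, and the carnitine carrier 0.354 and 0.419%. These are shares of a sum that was itself lower in LPS. In TPM, the amino acid carriers summed to means of 121.2 in None and 121 in LPS, with overlap. The nucleotide and cofactor carriers were lower in LPS (142 and 130), without overlap. Sums higher in LPS without overlap were those of carboxylate (190 and 242), iron and glutathione (184 and 233) and uncoupling protein-like carriers (22.0 and 35.4). Slc25a39 took the third place in LPS, which Slc25a4 held in None. Of the 36 members with a mean of at least 1 TPM, neighbours in the order of levels did not overlap between libraries in 18 of 35 pairs in None and in 12 of 35 in LPS.

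**Figure D4:**
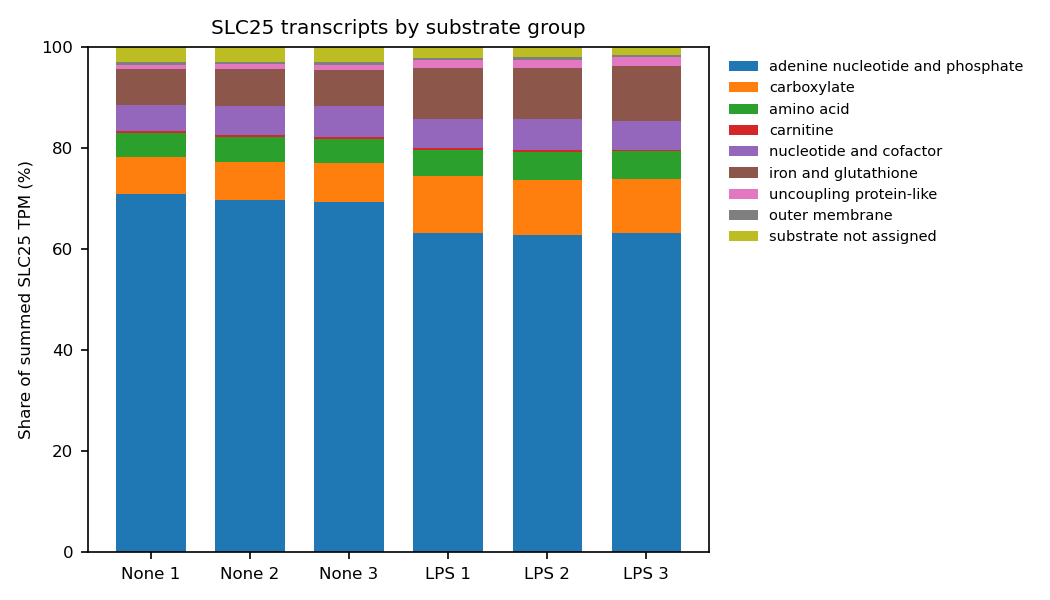
Share of the summed SLC25 TPM taken by each substrate group, in percent, for each None and LPS library. Adenine nucleotide and phosphate carriers fall from a mean of 70.0% to 63.1%, and the carboxylate and the iron and glutathione groups take more.

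Further lists bear on how carriers reach the membrane and on other mitochondrial transport. Of the 13 genes of the import route for carriers, 4 rose and 4 fell; the small chaperone gene Timm8b was at a log2 fold change of 1.09, the TIM22 subunit genes Agk, Timm29 and Timm22 at -0.86, -0.52 and -0.45. Timm22 was at -0.20 and not called on log2(TPM + 1), and by library totals the list had 1 higher and 6 lower. Of 26 other transport proteins of mitochondria, 23 were tested, with 14 higher and 4 lower. The outer membrane protein gene Tspo was at 1.75, the calcium uniporter genes Mcub and Mcu at 1.66 and 0.84, and the sideroflexin Sfxn2 at -0.88. By library totals this list had 6 higher and 7 lower, and without None replicate 2 or 3 it had 8 or 9 higher and 4 lower.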

How the data were processed

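Reads (paired-end) were filtered with SOAPnuke, per the labels' protocols, and STAR 2.7.10a, RSEM 1.3.1 and GRCm38 are named in the submitters' processing notes; RNA selection and strand are not given in the sources used here. The authors deposited expected counts, the fractional estimated counts per gene that RSEM gives, and TPM, which RSEM derives from them by transcript length; the tools are named, per the submitters' processing notes, without their roles. Estimated counts were rounded to whole numbers here, and 530 genes without a symbol, 0.0231 to 0.0318% of counts, were kept under their gene identifier. Genes passed edgeR's filterByExpr (minimum count 10, total 15), and edgeR 4.0.16 (R 4.3.3) fitted None against LPS with TMM scaling, a two-sided quasi-likelihood test and Benjamini-Hochberg adjustment. The standard error is the log2 fold change over the root of F. The biological coefficient of variation was 8.32%. TPM served for levels and shares.

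The script was tested on simulated data. Alternatives used DESeq2 1.42.0, limma 3.58.1, other scalings and filters, and left out each library. Replicates of a group differed by more than counting noise (chi-square per degree of freedom 3.29 to 17.4). Values in every library are given for members with a mean of at least 20 TPM in either group, called members with a log2 fold change of at least 1 in size, and members of the compared pairs; of each other list, up to 4 called genes with the largest log2 fold change. Members and lists were chosen with earlier results of these data known. The files hold 12 columns of libraries that matched no label, which were not used.

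Exon overlaps came from GENCODE M21 (GRCm38), and promoter windows from RefSeq (GRCm38.p6). The definitions of 4 motifs were revised after a first search had been seen: as first defined, NF-kappaB matched 0 members, NRF1 2, the interferon response core 2 and YY1 0. In the lists, 2 symbols were matched by an older name. Single genes that enter the counts but are withheld are not reported here by name or value.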

Additional observations from a re-analysis of the deposited data

How the results depend on the processing

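Of the 25 called members, 18 (8 higher, 10 lower) kept their call in every one of the 14 alternatives that fitted them, and the 7 others were Slc25a11, Slc25a20, Slc25a32, Slc25a38, Slc25a39, Slc25a42 and Slc25a53. Leaving out 1 library gave 20 to 22 called members, DESeq2 20, and library totals 30 with 22 lower in place of 13. Library totals turned the sign of Slc25a11 (-0.022), Slc25a17 (-0.236), Slc25a24 (-0.241) and Slc25a5 (-0.191) and of Slc25a28, Slc25a40 and Slc25a47, which stayed uncalled there. TPM turned Slc25a17 to -0.196 with 1 added and -0.199 with 0.1 added, and without a call Slc25a5, Slc25a24, Slc25a28, Slc25a40 and Slc25a47; RLE scaling and DESeq2 turned Slc25a13, near 0 and uncalled. TMM-scaled CPM turned the log2 ratio of the summed family to 0.0768. On TPM with either value added, 11 other transport genes were called in place of 18, and 8 cofactor and one-carbon enzymes in place of 15. The causes were not tested. Replicate numbers are shared by the groups, but same-numbered libraries deviated together weakly (correlations 0.257, 0.0756 and 0.0302), and the fit with a replicate block also called 25 members. Depth limits the 9 untested members and Slc25a18, and 3 libraries a group limit every exact permutation test to 0.10.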
